A study of Rattus norvegicus with 6 samples.

Results

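Sphingosine 1-phosphate (S1P) is a lipid signal made from a membrane sphingolipid. The genes described here are its receptors S1pr1, S1pr2, S1pr3 and S1pr5, the kinases that make it (Sphk1 and Sphk2), the lyase that destroys it (Sgpl1) and a phosphatase that returns it to sphingosine (Sgpp1). They are 8 of the 22608 gene symbols in the deposited table and were chosen by symbol, without a threshold on any value. The FPKM differences between BHB and control libraries, that of S1pr3 among them, were already known when the set was chosen, so the tests below describe each gene and support no statement about the set. All 8 were found. Of these, 6 passed the filter on low values (1 FPKM or more in 3 or more of the 6 libraries), and S1pr5 and Sphk1 did not.

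The libraries came from primary astrocytes of rat brain, with 3 left as controls and 3 given β-hydroxybutyrate (BHB), a ketone body that rises in blood during fasting, and the comparison asks which astrocyte genes respond to it. According to the column names of the table, BHB was given at 2 mM. The sources used here do not give strain, age or length of treatment. They do not say whether replicate libraries were separate cultures, and p-values then reflect only the spread among these libraries, which may be technical. FPKM is scaled to gene length and to the mapped fragments of a library, so levels can be compared between genes. The summed FPKM ran from 354565 to 367448 and absolute depth is unknown. The value of 1 read, estimated from the lowest entries, was 0.852 to 1.01 times that in control 1. All 12 listed astrocyte markers passed the filter, led by the fatty acid binding protein gene Fabp7 at 2319 ± 90.2 FPKM in controls (SD, n = 3).

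S1P is made inside the cell, exported, and read at the surface by G protein-coupled receptors. S1PR1 couples to Gi proteins alone, while S1PR2 and S1PR3 also engage other G proteins, the Gq class among them. In brain, S1PR1 and S1PR3 are the main astrocyte receptors, S1PR5 is known from oligodendrocytes, and S1PR4 from blood cells. The receptors are targets of fingolimod, a multiple sclerosis drug that acts in part on astrocytes.

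The regions just upstream of the 3 receptor genes that passed the filter are shown because S1pr3 and S1pr2 lay higher in every BHB library while S1pr1 did not. They are the 250 bases before a listed start in RefSeq (assembly GRCr8, a later build than the rn6 of the files, matched by symbol), written along the gene's strand, which is the minus strand for each. Capitals mark GC boxes (GGGCGG) and CCAAT boxes (CCAAT) on either strand. The S1pr3 window is chr17:13946014-13946263, of which 200 bases lie within the outermost listed bounds of the gene. The S1pr2 window is chr8:27790345-27790594 and the S1pr1 window chr2:206314071-206314320.
S1pr3: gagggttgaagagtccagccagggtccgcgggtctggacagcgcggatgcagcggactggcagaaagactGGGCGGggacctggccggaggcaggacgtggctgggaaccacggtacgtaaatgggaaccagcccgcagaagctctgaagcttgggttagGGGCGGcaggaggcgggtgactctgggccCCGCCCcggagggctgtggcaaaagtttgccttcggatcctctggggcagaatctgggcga
S1pr2: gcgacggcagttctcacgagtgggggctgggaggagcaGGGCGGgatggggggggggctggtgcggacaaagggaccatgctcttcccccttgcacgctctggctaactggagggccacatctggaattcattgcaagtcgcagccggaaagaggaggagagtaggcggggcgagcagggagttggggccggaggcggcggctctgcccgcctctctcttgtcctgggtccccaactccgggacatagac
S1pr1: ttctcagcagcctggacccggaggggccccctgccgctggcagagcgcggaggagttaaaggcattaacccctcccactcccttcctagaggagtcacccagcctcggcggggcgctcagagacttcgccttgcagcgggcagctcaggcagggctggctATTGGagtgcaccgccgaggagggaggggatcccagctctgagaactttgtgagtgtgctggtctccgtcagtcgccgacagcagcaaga
The S1pr3 window held 3 GC boxes, the S1pr2 window 1 and the S1pr1 window none, while the S1pr1 window alone among these held a CCAAT box. GC boxes were also found upstream of genes whose groups overlapped, with 2 for Sgpl1, 2 for S1pr5, 1 for Sgpp1 and 1 in a window of Sphk1. The Sphk2 window held none. CCAAT boxes were also found upstream of Sgpl1 and Sphk1. Of the 33469 windows of this length in the table, 30.5% held a GC box and 34.0% a CCAAT box. Neither the AP-1 motif (TGANTCA, in 6.34% of windows) nor the cAMP response element (TGACGTCA, in 1.59%) was found upstream of any of the 8 genes, searched on both strands over 10 windows. The TATA box (TATAAA, in 12.9% of windows) was found in 1 of the windows of Sphk1 and in none of the other genes. The windows of the 3 receptors were rich in G and C, at 66.0%, 66.4% and 64.8% for S1pr3, S1pr2 and S1pr1, against a median of 51.2% over all windows. These 5 motifs were kept after a wider search whose matches had been seen. Of the 7 motifs not kept, none of the 10 windows held EGR (GCGNGGGCG, in 4.29% of all windows), the NF-kB motif (0.314%), the E-box (CACGTG, 5.59%) or the CArG box (1.5%). The TEAD motif (GGAATG, 12.1%) was found in 1 window, of Sphk1. The core of the cAMP response element (TGACG, 18.2%), which the whole element contains, was found in 3 windows, of S1pr1 and Sphk1. The hypoxia response core (ACGTG or GCGTG, 36.7%), which overlaps the E-box, was found in 7 windows, of every gene but S1pr1 and S1pr5. All 250 bases of the Sphk2 window and of some Sphk1 windows lie within the outermost listed bounds of the gene. So do 186 bases for Sgpl1 and 144 for S1pr5. Such windows lie before a listed start but not wholly before the gene. These matches describe letters only.

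S1pr3 was the most abundant gene of the set in all 6 libraries. It stood at 61.7, 65.1 and 60.9 FPKM in controls 1 to 3 and at 69.2, 74.1 and 72.1 FPKM in BHB 1 to 3. Every BHB library lay above every control, and BHB 2 was the highest. The means were 62.6 ± 2.25 and 71.8 ± 2.45 FPKM (SD, n = 3 each), a ratio of 1.15. The log2 difference (BHB minus control, here and below between means of log2(FPKM + 1)) was 0.20 (SE 0.0469, 95% interval 0.09 to 0.30). In limma the unadjusted p was 0.00291 and the adjusted p over all 12373 genes tested was 0.881, so the difference did not pass. The estimate was among the tighter ones, since 6.24% of genes tested had a smaller standard error. In bulk RNA, more cells of a type and more RNA per cell cannot be told apart.

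S1pr2, the receptor best known for restraining cell movement, was far less abundant. It stood at 7.19, 6.52 and 7.89 FPKM in controls 1 to 3 and at 8.25, 8.78 and 7.90 FPKM in BHB 1 to 3. The groups did not overlap, but control 3 and BHB 3 were nearly equal. The means were 7.20 ± 0.681 and 8.31 ± 0.442 FPKM (SD, n = 3 each), a ratio of 1.16. The log2 difference, 0.19 with a 95% interval from 0.01 to 0.37, had an unadjusted p of 0.0438 and an adjusted p of 0.881 in limma, and did not pass. Without control 2 the log2 difference was 0.13 (unadjusted p = 0.151) and without BHB 2 it was 0.15 (unadjusted p = 0.133).

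S1pr1, the Gi-coupled receptor, showed no shift beyond the spread between libraries. Controls 1 to 3 stood at 25.7, 24.3 and 23.3 FPKM and BHB 1 to 3 at 22.8, 24.5 and 23.6 FPKM. The groups overlapped, with the highest value in control 1 and the lowest in BHB 1. The log2 difference of -0.05 (adjusted p = 0.921 in limma, 95% interval from -0.17 to 0.08) corresponds to an interval of 0.886 to 1.06 as a ratio. S1pr1 is also strongly expressed by endothelium. Endothelial markers were low here: 1 of 10 passed the filter (Eng, 2.25 ± 0.0244 FPKM in controls), Cldn5 and Emcn were listed at 0 in every library, and the summed level of the 10 ran from 3.66 to 4.16 FPKM over controls and from 3.57 to 4.82 FPKM over BHB libraries. The other 7 had values above 0, and their part in the S1pr1 level was not tested.

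S1pr5 stood at 0.0813, 0.137 and 0.226 FPKM in controls 1 to 3 and at 0.143, 0.186 and 0.197 FPKM in BHB 1 to 3. The groups overlapped, and control 1 and control 3 marked both ends of the range. Without the filter its log2 difference was 0.04 (interval at 95% from -0.09 to 0.16), a scale that compresses such low values. Markers of the oligodendrocyte lineage, to which S1PR5 belongs in brain, stood at very unequal levels. Of 11 such markers 7 passed the filter and none was at 0 in all libraries, and their summed level ran from 92.5 to 97.9 FPKM over controls and from 95.1 to 99.1 FPKM over BHB libraries. The most abundant was Cnp, at 47.0 ± 1.59 and 50.5 ± 2.41 FPKM (SD, n = 3 each), and next came Olig1, at 24.8 ± 0.792 and 25.8 ± 1.59 FPKM. Most of the summed level came from Cnp and Olig1. Sox10, Mag and Mobp did not pass the filter, at no more than 0.322, 0.219 and 0.0507 FPKM in any library. Mog did not pass either, at 5.47 FPKM in control 1 and 0.220 to 0.529 FPKM elsewhere. The part of these markers in the S1pr5 level was not tested. S1pr4 was listed at 0 in every library.

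**Figure D1:**
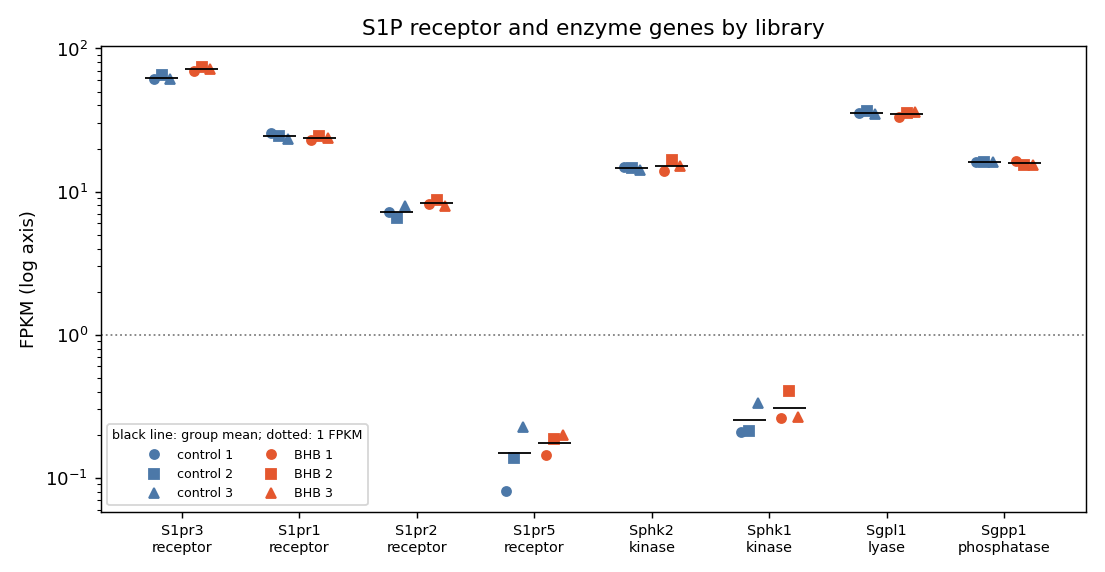
FPKM of the 8 genes on a log axis, by library. Points are libraries (blue control, orange BHB, the symbol gives the number), black lines are means of 3 and the dotted line is the 1 FPKM minimum. The 3 BHB points of S1pr3, at 69.2 to 74.1 FPKM, lie above its controls, and S1pr5 and Sphk1 lie under the minimum.

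S1pr3 held most of the receptor message. It made up 65.2%, 67.8% and 66.0% of the summed receptor FPKM in controls 1 to 3 and 69.0%, 68.9% and 69.5% in BHB 1 to 3. S1pr1 held 27.2%, 25.3% and 25.2% in controls and 22.7%, 22.8% and 22.7% with BHB. The shares of both receptors separated the groups, with a BHB minus control difference of 2.80 percentage points for S1pr3 and -3.17 percentage points for S1pr1. The shares are parts of the same sum, so a higher S1pr3 value lowers the S1pr1 share, and the 2 differences are not separate results. The FPKM of S1pr1 itself overlapped, at 23.3 to 25.7 in controls and 22.8 to 24.5 with BHB. As a ratio of FPKM, S1pr3 to S1pr1 was 2.40, 2.68 and 2.62 in controls and 3.04, 3.03 and 3.06 with BHB, so the BHB libraries were closer to each other than the controls were. The S1pr2 share overlapped, at 6.79% to 8.54% in controls and 7.62% to 8.22% with BHB, and its difference of 0.36 percentage points turned to -0.07 without control 2. The summed receptor FPKM was 94.4 ± 1.93 in controls and 103.9 ± 3.58 with BHB (SD, n = 3 each). These sums and ratios were given no test.

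**Figure D2:**
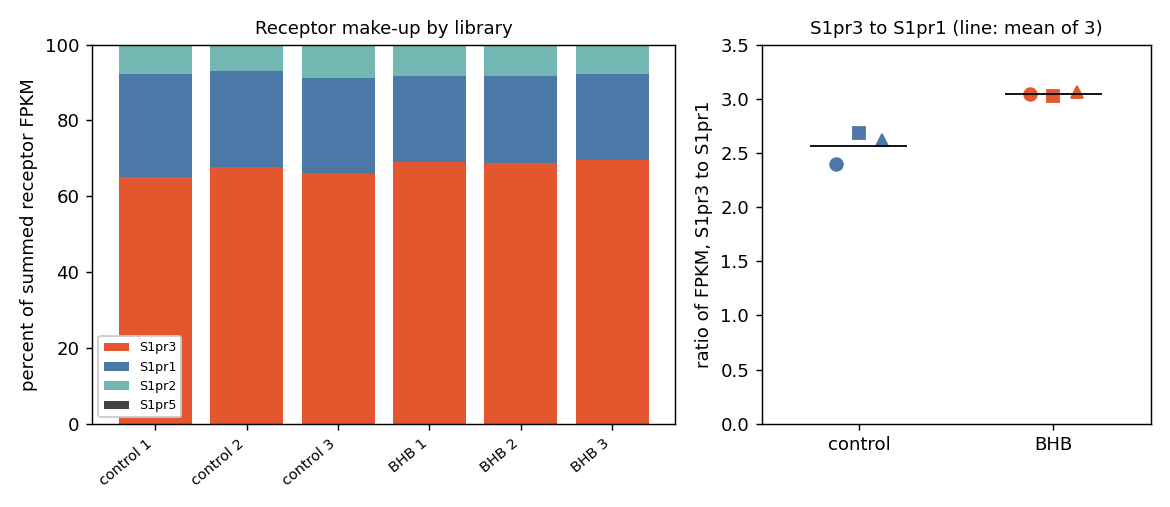
Left, the percent of summed receptor FPKM held by each S1P receptor gene in each library, where S1pr5 is too small to see (at most 0.244%). Right, the ratio of S1pr3 to S1pr1 FPKM by library with the mean of 3 as a line. The BHB ratios, 3.03 to 3.06, lie above the control ratios, 2.40 to 2.68.

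Of the kinases that make S1P, Sphk2 was by far the more abundant. Sphk2, which acts largely in the nucleus and at internal membranes, stood at 14.8, 14.7 and 14.0 FPKM in controls 1 to 3 and at 13.9, 16.6 and 15.0 FPKM in BHB 1 to 3. BHB 2 was the highest and BHB 1 the lowest library, so the BHB group spanned the controls. The log2 difference of 0.06 (adjusted p = 0.926 in limma, 95% interval from -0.10 to 0.22) turned to -0.01 without BHB 2. In RefSeq, Sphk2 lies within 2000 bases of the ribosomal protein gene Rpl18, which was also highest in BHB 2, at 144.8 FPKM against 112.6 to 131.4 FPKM elsewhere. Sphk2 also lies within that distance of the transcription factor gene Dbp, which was lowest in BHB 2, at 23.0 FPKM against 23.7 to 28.8 FPKM elsewhere. Whether reads of either neighbour enter the Sphk2 value was not tested.

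Sphk1, the kinase that is induced by growth factors and cytokines, stood at 0.209, 0.213 and 0.332 FPKM in controls 1 to 3 and at 0.262, 0.402 and 0.264 FPKM in BHB 1 to 3. The groups overlapped and no library reached 1 FPKM. Without the filter the log2 difference was 0.07 (interval at 95% from -0.08 to 0.21). A long non-coding RNA gene, Khps1a, overlaps Sphk1 in RefSeq, and strand use in the authors' counting is not given, so reads of the overlap cannot be assigned to either. The protein-coding gene Ube2o lies within 2000 bases of Sphk1 and stood far higher, at 10.3 to 10.9 FPKM. Whether reads of Ube2o enter the Sphk1 value was not tested.

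The genes that remove S1P stayed within the spread of the libraries. Sgpl1, the lyase that cleaves S1P irreversibly, stood at 35.2, 36.5 and 34.7 FPKM in controls 1 to 3 and at 33.4, 35.3 and 35.7 FPKM in BHB 1 to 3. The groups overlapped, and BHB 1 was the lowest. The log2 difference was -0.03 (adjusted p = 0.952 in limma, 95% interval from -0.14 to 0.08), and it was 0.0031 without BHB 1. Sgpp1, the phosphatase of the endoplasmic reticulum, stood at 16.01, 16.10 and 16.14 FPKM in controls 1 to 3 and at 16.4, 15.5 and 15.3 FPKM in BHB 1 to 3. Its controls were nearly equal and the BHB libraries lay on both sides of them, with a log2 difference of -0.03 (adjusted p = 0.946 in limma, 95% interval from -0.15 to 0.09). On the ratio scale these intervals run from 0.910 to 1.06 for Sgpl1 and from 0.903 to 1.06 for Sgpp1. Sgpp2, the other S1P phosphatase gene, was listed at 0 in every library. The ratio of summed kinase FPKM to summed Sgpl1 and Sgpp1 FPKM was 0.283 to 0.294 in controls and 0.284 to 0.335 with BHB. The mean difference of 0.0197 was 0.0052 without BHB 2.

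Over the 6 libraries the levels ran in the order S1pr3 (mean 67.2 FPKM), Sgpl1 (35.1), S1pr1 (24.0), Sgpp1 (15.9), Sphk2 (14.8), S1pr2 (7.76), Sphk1 (0.280) and S1pr5 (0.162). The ranges of Sgpp1 and Sphk2 overlapped, as did those of Sphk1 and S1pr5, and all other neighbours in this order were apart. Among the genes tested, 92.0% had a lower mean than S1pr3, 82.8% than Sgpl1, 74.3% than S1pr1, 62.9% than Sgpp1, 60.5% than Sphk2 and 40.3% than S1pr2. The values of S1pr2 and Sgpp1, which have 1 listed RefSeq transcript each, carry at most 6 decimals, and those of the other 6 genes, with 2 to 7 transcripts, carry more. The sources used here do not say how transcripts were combined into a gene value.

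Of the 6 genes tested 0 passed at an adjusted p of 0.05 in limma, where 0.0566% of all genes tested did. At an unadjusted p under 0.05 there were 2 of 6, S1pr3 and S1pr2, both higher, where 5.59% of all genes tested were under it in either direction and 3.45% were under it and higher. The groups did not overlap in the same 2 genes, against 10.9% of all genes tested. Nothing is read from these counts, because the genes were chosen with this comparison known. The median log2 difference of the 6 was 0.02, and of all genes tested 0.00, with 3 of the 6 above 0 against 51.5% of all. An absolute log2 difference as large as that of S1pr3 was not reached by 93.6% of the genes tested, and 33 genes had a smaller unadjusted p.

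**Figure D3:**
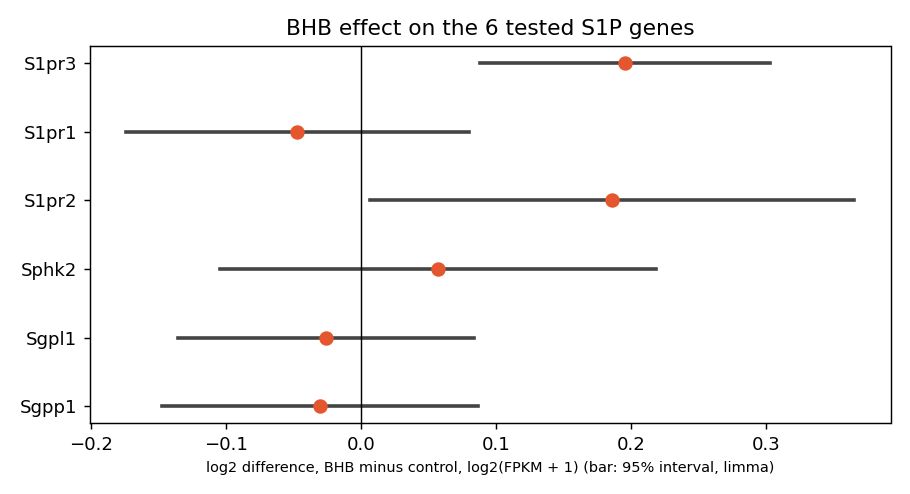
Log2 difference, BHB minus control, between means of log2(FPKM + 1) for the 6 genes tested, with 95% intervals from limma (3 libraries per group). The intervals of S1pr3 (0.09 to 0.30) and S1pr2 (0.01 to 0.37) lie above 0 and those of the other 4 include it, and no gene passed after adjustment.

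The genes whose pattern over the 6 libraries was most like that of S1pr3 were Ptpn1 (Pearson r = 0.998), LOC100912537 (0.995) and Zxdc (0.995), among 11117 genes with a mean of at least 2 FPKM. With 6 libraries, 197 of these genes had an r above 0.9, so likeness at this level is common. Ptpn1, a tyrosine phosphatase that dampens insulin and leptin receptor signals, averaged 22.1 ± 0.993 FPKM in control and 25.6 ± 0.915 FPKM in BHB libraries (SD, n = 3 each), with a log2 difference of 0.20 and an adjusted p of 0.881 in limma. Within the set, r with S1pr3 was 0.60 for S1pr2 and -0.24 for S1pr1, as a description over 6 libraries that share their treatment groups.

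The other genes of the pathway were described from 8 lists of 75 genes, drawn up with earlier results of these data known. Of these, 55 passed the filter. The lists of S1P transport, breakdown and sphingolipid metabolism held no gene that passed. Of the genes for S1P export and carriage, 3 of 6 were tested and all 3 lay above 0, with none at an unadjusted p under 0.05. The lipid exporter gene Abca1 led them at 20.9 ± 4.77 and 22.6 ± 1.06 FPKM (SD, n = 3 each), with control 2 the lowest library at 15.7 FPKM. Its log2 difference of 0.13 turned to -0.06 without control 2. Spns2, the dedicated S1P exporter, was under the minimum at 0.321 ± 0.128 and 0.239 ± 0.0625 FPKM, and Mfsd2b, the exporter of blood cells, was listed at 0 in controls and stood at no more than 0.0585 FPKM with BHB.

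Lipid phosphate phosphatases strip the phosphate from S1P at the cell surface. In that list, which also holds the genes that handle the products of the lyase, 2 of 5 tested genes lay above 0 and none had an unadjusted p under 0.05. Plpp1 was the most abundant, at 98.8 to 101.6 FPKM over controls and 98.1 to 104.9 FPKM over BHB libraries. Plpp3 stood at 64.3, 63.0 and 62.1 FPKM in controls 1 to 3 and at 60.7, 53.0 and 60.2 FPKM in BHB 1 to 3. Each BHB library of Plpp3 lay below each control, but the log2 difference of -0.12 (adjusted p = 0.881 in limma, 95% interval from -0.26 to 0.01) did not pass.

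Ceramidases free sphingosine, the substrate of the kinases, from ceramide. Of 4 tested, 2 lay above 0 and none had an unadjusted p under 0.05. The lysosomal Asah1 was the most abundant at 122.6 ± 5.40 and 117.7 ± 5.94 FPKM, and Naaa, a relative of Asah1 that prefers N-acylethanolamines, stood at 2.88 ± 0.152 and 2.49 ± 0.105 FPKM (SD, n = 3 each), with a log2 difference of -0.15 and an adjusted p of 0.881 in limma. Of 13 tested genes of ceramide synthesis 7 lay above 0, with a median of 0.02, and 1 had an unadjusted p under 0.05. This was Cers1, a ceramide synthase best known from neurons, at 2.66, 3.36 and 2.15 FPKM in controls 1 to 3 and 3.72, 4.31 and 3.37 FPKM in BHB 1 to 3. Control 2 and BHB 3 of Cers1 were nearly equal, and the log2 difference of 0.37 (interval at 95% from 0.08 to 0.67) had an adjusted p of 0.881 in limma and did not pass. Sptssa, a small subunit of serine palmitoyltransferase, led the list at 86.3 ± 5.72 and 86.0 ± 5.38 FPKM.

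Among genes of sphingomyelin and glycolipid turnover 8 of 14 tested lay above 0, with a median of 0.02 and none at an unadjusted p under 0.05. Psap, which encodes the saposins that help lysosomal sphingolipid breakdown, led at 550.8 ± 12.7 and 561.9 ± 22.8 FPKM. The smallest p of the list belonged to Cptp, a transfer protein of ceramide 1-phosphate, at 5.34 ± 0.0102 and 5.92 ± 0.108 FPKM (SD, n = 3 each), with a log2 difference of 0.13 and an adjusted p of 0.881 in limma.

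**Figure D4:**
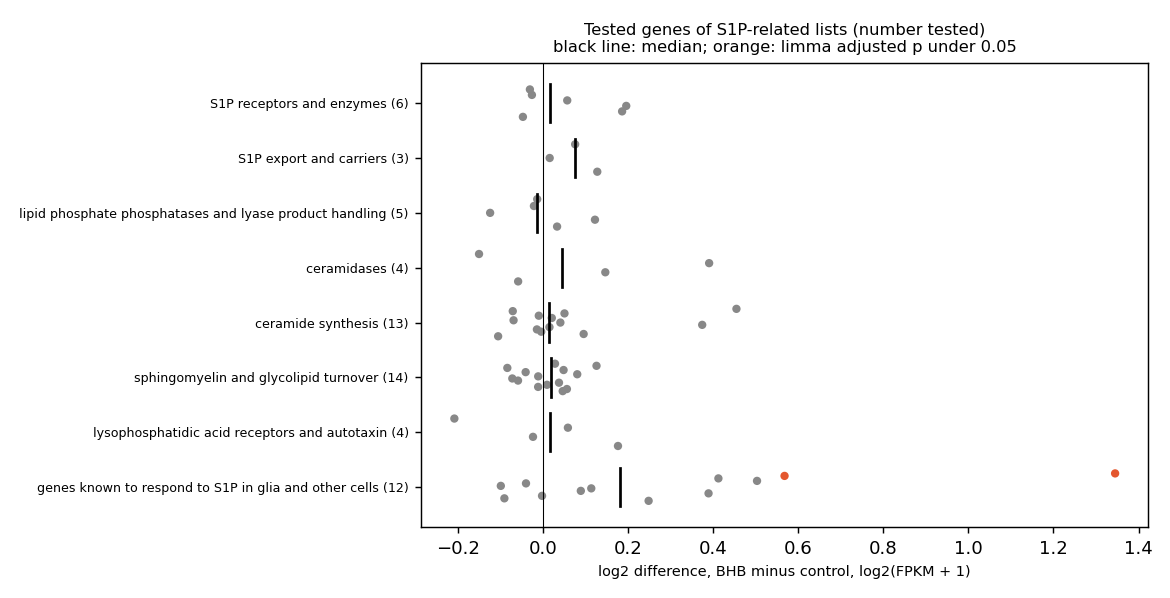
Log2 difference, BHB minus control, between means of log2(FPKM + 1) for the tested genes of each S1P-related list, 1 point per gene, with the list median as a black line and genes with a limma adjusted p under 0.05 in orange. The 2 orange points are Fos (0.57) and Fosb (1.34, which passed the filter through its BHB libraries alone), and no other list holds one.

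Markers of other brain cell types were detected and were compared between the groups. Fibroblast and mural markers summed to 4483 to 4858 FPKM over controls and 4637 to 5021 FPKM over BHB libraries, which overlap. Of these, 7 of 10 passed the filter, with none at an unadjusted p under 0.05. Tagln and Acta2 made up most of that sum, at means of 3030 and 1285 FPKM in controls. Col1a2, Col1a1, Pdgfrb, Col3a1 and Rgs5 also passed the filter, at means of 270.9, 98.8, 26.8, 13.9 and 1.26 FPKM in controls. Dcn, Lum and Kcnj8 did not pass the filter, at no more than 0.0324, 0.234 and 0.245 FPKM in any library. Microglia markers, led by C1qb (mean 11.0 FPKM in controls), summed to 48.1 to 53.3 FPKM over controls and 49.1 to 51.6 FPKM over BHB libraries. Of these, 9 of 10 passed the filter, and 1 was at an unadjusted p under 0.05 in limma. This was the chemokine receptor gene Cx3cr1, at 5.84 ± 0.365 and 4.66 ± 0.447 FPKM (SD, n = 3 each, limma adjusted p = 0.881). Each BHB library of Cx3cr1 lay below each control. Tmem119 and Aif1 of the same list went the other way, with each BHB library above each control. Tmem119 stood at 2.06 to 2.84 FPKM over controls and 2.91 to 3.21 FPKM over BHB libraries. Aif1 stood at means of 4.87 FPKM in controls and 5.22 FPKM with BHB. Neuron markers, led by Tubb3 (mean 18.4 FPKM in controls), summed to 43.4 to 45.4 FPKM over controls and 40.4 to 43.6 FPKM over BHB libraries (7 of 10). Of these 7, 5 lay below 0, and Syp and Gad1 were at an unadjusted p under 0.05 in limma, both lower in each BHB library than in each control. Among all genes tested, 5.59% were under that threshold in either direction, and the groups did not overlap in 10.9%. Ependymal markers summed to 36.6 to 39.7 and 33.5 to 36.5 FPKM (3 of 6), with none at an unadjusted p under 0.05. Most of that sum was Foxj1, whose groups overlapped, and without it the sums overlapped, at 3.38 to 4.74 and 3.67 to 4.68 FPKM. Astrocyte markers summed to 4913 to 5170 and 5329 to 5342 FPKM, and include the glutamate transporter gene Slc1a3, which passed the test, at means of 202.7 and 455.2 FPKM. It was the only 1 of 12 at an unadjusted p under 0.05, and without it the sums overlapped, at 4706 to 4973 and 4873 to 4890 FPKM. No marker of these lists was at 0 in all libraries. The part of these markers in the S1pr3 and S1pr2 values was not tested.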

How the data were processed

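Poly(A) RNA of 6 libraries (3 control, 3 BHB) was sequenced after TruSeq library preparation, per the labels' protocols. The authors deposited FPKM values per gene symbol. The submitters' processing notes name bcl2fastq 2.0, HISAT2, StringTie and DESeq2 and the build rn6, without roles or settings. The sources used here give neither annotation nor strand. Values were transformed as log2(FPKM + 1), and the 12373 genes reaching 1 FPKM in 3 or more libraries were fitted with limma 3.58.1 in R 4.3.3 (treatment only, eBayes with trend, two-sided, Benjamini-Hochberg over all genes, threshold 0.05). Depth is unknown, so no counting interval is given. An exact permutation test of 3 against 3 cannot go below p = 0.1 and was not used. The members and lists were chosen with earlier results of these data known. Named genes were the 8 members, S1pr4 and Sgpp2, and of each pathway list the most abundant gene, the tested gene with the smallest p and any gene that passed, of each marker list the most abundant, and the 3 genes most correlated with the leading receptor. Some named genes fall outside this rule and were chosen after their values were seen. They are Spns2, Mfsd2b, Cldn5, Emcn, Rpl18, Khps1a, Dbp, Slc1a3, Cx3cr1, Syp, Gad1, Olig1, Sox10, Mag, Mobp, Mog, Acta2, Dcn, Lum and Kcnj8. Ube2o, Tmem119, Aif1, Col1a2, Col1a1, Pdgfrb, Col3a1 and Rgs5 were chosen in the same way. The genes beyond Fos, Fosb and Ctgf named among S1P-responsive genes fall outside it too. Tested on simulated data for BHB against control with 12373 genes, the fit found 20.6% of the genes shifted by 0.25 (log2) and 86.9% of those shifted by 0.5. Each simulation shifted 50 genes by each of 0.25, 0.5, 1 and 1.5, far more than the 7 genes called in the data. With fewer shifted genes the adjustment is stricter, so recovery in the data may be lower. The simulated noise was normal and independent between libraries, with the spread that limma had fitted for each gene. Outlying libraries and batches were therefore not simulated. 1 planned gene list is not reported here. Alternatives were other pseudocounts, filters, scalings, eBayes settings, a replicate block and leaving out each library.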

Additional observations from a re-analysis of the deposited data

How the results depend on the processing

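Over 16 alternatives none of the S1P genes passed. S1pr3 kept its direction in each (log2 difference 0.17 to 0.22, limma unadjusted p 0.0020 to 0.0146, adjusted p 0.611 to 1.0), as did S1pr2 (0.13 to 0.25, unadjusted p 0.0156 to 0.151, adjusted p 0.685 to 1.0), S1pr1 (-0.08 to -0.01) and Sgpp1 (-0.06 to -0.01). With a library left out, log2 differences ran from -0.0067 to 0.1161 for Sphk2, -0.0447 to 0.0031 for Sgpl1, -0.0564 to 0.2642 for Abca1, -0.0597 to 0.0382 for Sptssa and -0.0439 to 0.1260 for Lpar6, and so turned. The cause was not tested. The 7 genes called became 4 without the eBayes trend, and 5 to 10 when a library was left out. There the tested genes were held fixed, a choice made after seeing that reapplying the filter to the 5 libraries kept gave 1 to 10 (1 without BHB 1 and 4 without BHB 3). No S1P gene passed in either version. The 2 pathway genes called became 1 without a filter, with at least 5 FPKM, without the trend, with the block and whenever a library was left out. With the replicate block 2 genes were called in all and 1 of the pathway, and the unadjusted p was 0.00512 for S1pr3 and 0.0810 for S1pr2. Libraries with the same number had correlations of both signs between their deviations from the group means (-0.0899, 0.164 and -0.151). Larger ones were seen for control 3 with BHB 1 (0.203) and control 1 with BHB 3 (0.186), so the numbers give no pairing. With control 2 and BHB 2 (0.164), these were the only positive values, and together they hold each library once. The replicate block followed the library numbers and so does not cover that order. Whether the libraries are paired in another order was not tested. Of 316 values of 20 named genes, 299 kept their direction and side of the threshold, 8 turned and 9, all of Fos, lost the call. Depth is unknown, and differences of 0.25 (log2) or less can be missed, as can some near 0.5.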

Other observations

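Some, but not all, receptors for lysophosphatidic acid are close relatives of the S1P receptors, and lysophosphatidic acid is made by autotaxin (Enpp2). Of 7 genes 4 passed the filter, 2 above and 2 below 0, and none passed the test. Lpar6 was the most abundant, averaging 9.18 ± 1.08 FPKM without and 9.62 ± 1.37 FPKM with BHB (SD, n = 3 each). Enpp2 stood at 4.77, 5.13 and 5.11 FPKM in controls 1 to 3 and at 4.63, 4.01 and 3.96 FPKM in BHB 1 to 3, so each BHB library lay below each control. Its log2 difference of -0.21 (95% interval -0.38 to -0.03, limma unadjusted p = 0.0249) did not pass (adjusted p = 0.881).

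Of 12 tested genes known to respond to S1P in glia and other cells, Fosb and Nr4a1 reached 1 FPKM in BHB libraries alone, so they entered the test through the group where they are high. Of the other 10, 6 lay above 0 (median log2 difference 0.10), and 5 had an unadjusted p under 0.05 in limma, all higher, where 3.45% of all genes tested were higher at that threshold. The list was drawn up with earlier results known, and its genes respond to many other signals, so it is no evidence of S1P signalling. Both Fos family members of the list, which encode AP-1 subunits, passed. Fosb rose from 0.276 ± 0.0840 to 2.24 ± 0.197 FPKM (limma adjusted p = 0.00258, and 0.0070 without the filter) and Fos from 9.10 ± 0.668 to 13.9 ± 0.487 FPKM (adjusted p = 0.0402, SD, n = 3 each), a call that ended when any single library was left out (adjusted p 0.0555 to 0.175). The matrix protein gene Ctgf, the most abundant, stood at 316.9 ± 10.6 and 342.9 ± 13.6 FPKM (SD, n = 3 each; limma adjusted p = 0.881). The EGF receptor ligand gene Hbegf stood at 42.9, 42.7 and 40.8 FPKM in controls 1 to 3 and 49.1, 52.4 and 49.2 FPKM in BHB 1 to 3 (limma adjusted p = 0.632). Vegfa did not follow, at 30.9 ± 1.90 and 30.8 ± 1.16 FPKM, nor did Ptgs2, at 1.37 ± 0.241 and 1.22 ± 0.115 FPKM (SD, n = 3 each).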
